A study of Mus musculus with 47 samples.

Results

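The 10 genes described here encode the core of MHC class I antigen presentation in the mouse: the heavy chains H2-K1 and H2-D1 with their light chain B2m, the transport and loading factors Tap1, Tap2 and Tapbp, the inducible proteasome subunits Psmb8, Psmb9 and Psmb10, and the transactivator Nlrc5. They were taken as a named list. The rule used no levels, but the list was chosen with earlier results of these data known. All 10 genes were found among the 56748 of the deposited count table. The measurements are RNA-seq read counts per gene from B78-D14 melanoma cells in culture and from tumors grown from them. B78-D14 is an amelanotic Cdkn2a-/- derivative of the B16 line, and the edited populations carry a base-edited, truncating G-to-A change in Mt-Nd5, the mitochondrial gene for a complex I subunit, in a share of their mtDNA. The cultures compared were 4 of control cells, labelled WT, and 4 of mt.11944 60% cells, in which about 60% of the mtDNA copies were edited at position 11944. The tumors compared were 4 control tumors (WT), 7 mt.12436 40% tumors and 7 mt.12436 60% tumors, edited at position 12436 in about 40% or 60% of the mtDNA of the grafted cells. Every tumor was an untreated subcutaneous graft in an immunocompetent young adult male C57BL/6 mouse, so a tumor fragment holds host cells beside melanoma cells, and the edited populations were sorted transfected cells of a single line, which limits them as a model to that line.

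Class I molecules show peptides from inside the cell to CD8 T cells, and natural killer cells read the amount of class I on a cell. The proteasome cuts the peptides, and in its inducible form, the immunoproteasome, the subunits Psmb8, Psmb9 and Psmb10 take the places of the constitutive catalytic subunits Psmb5, Psmb6 and Psmb7. The Tap1 and Tap2 transporter then carries the peptides into the endoplasmic reticulum, where Tapbp (tapasin) helps load them onto a heavy chain paired with B2m. Nearly all nucleated cells use this pathway, leukocytes strongly, and interferon-gamma raises transcription of its genes through Irf1 and Nlrc5. Cells of the B16 line are known for little class I at rest that interferon-gamma can raise.

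Of the 10 genes, 7 lie in the MHC region of chromosome 17. In GRCm39, Tapbp spans chr17:34134873-34148267 and H2-K1 chr17:34214987-34219321. Psmb9 (chr17:34400960-34406738), Tap1 (chr17:34405996-34416199), Psmb8 (chr17:34416690-34420428) and Tap2 (chr17:34422501-34435829) sit side by side within 34870 bases, and H2-D1 lies at chr17:35481691-35486475. B2m is at chr2:121977957-121983594, and Nlrc5 (chr8:95160984-95253900) and Psmb10 (chr8:106662362-106665077) are on chromosome 8. Tap1 and Psmb9 run in opposite directions and share 743 exon bases, 12.4% of those of Tap1 and 19.6% of those of Psmb9. Whether the counting used strand is not given in the sources used here, so reads from that stretch cannot be told apart between the pair. Tapbp shares 52.8% of its exon bases with neighbouring genes, H2-K1 26.8% and H2-D1 24.2%. Of the 100-base stretches of the H2-D1 transcript, 4.61% also occur in transcripts of other class I genes such as H2-T23 and H2-Q7. These are shares of annotated bases, and how many reads they affect is not known.

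The chains move together within the tumor groups described below, so the promoters of H2-K1, H2-D1 and B2m are shown. With them are those of Tap1, whose window overlaps that of Psmb9 on the other strand, and of Psmb8, the gene lowest in culture. The sequences are RefSeq's, from a promoter table built on GRCm38.p6 that held 8 of the 10 genes; Tap2 and Nlrc5 were missing from it. Each is the 250 bases before the RefSeq start site, 5′ to 3′ on the strand of the gene, placed on GRCm39 by exact match. Only the first start listed for a gene was used. For all of these genes but H2-K1 that start lies inside the gene span given above. For Psmb8 it is at chr17:34417169, against a canonical start at chr17:34416690 in the annotation behind the spans. The motif distances and matches depend on this choice of start. Capitals mark matches, on either strand, to 5 motifs: an interferon-response motif bound by IRF factors (AANNGAAA), the interferon-gamma-activated site (GAS, TTCNNNGAA), the core of the CRE-like X2 box (TGACG), the CCAAT box of NF-Y (CCAAT) and the NF-kB motif. The motif letters were chosen after the sequences had been seen.
H2-K1, chr17:34219322-34219571, minus strand: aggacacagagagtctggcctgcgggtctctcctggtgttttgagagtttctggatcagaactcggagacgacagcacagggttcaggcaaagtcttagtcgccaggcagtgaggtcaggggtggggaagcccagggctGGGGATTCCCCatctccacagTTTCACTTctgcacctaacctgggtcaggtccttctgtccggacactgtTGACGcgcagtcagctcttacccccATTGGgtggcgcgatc
H2-D1, chr17:35481820-35482069, plus strand: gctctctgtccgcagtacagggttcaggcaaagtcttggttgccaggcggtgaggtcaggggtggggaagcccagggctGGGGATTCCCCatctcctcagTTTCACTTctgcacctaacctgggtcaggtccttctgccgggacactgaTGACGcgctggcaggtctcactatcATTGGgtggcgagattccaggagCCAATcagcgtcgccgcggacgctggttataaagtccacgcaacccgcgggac
B2m, chr2:121977918-121978167, plus strand: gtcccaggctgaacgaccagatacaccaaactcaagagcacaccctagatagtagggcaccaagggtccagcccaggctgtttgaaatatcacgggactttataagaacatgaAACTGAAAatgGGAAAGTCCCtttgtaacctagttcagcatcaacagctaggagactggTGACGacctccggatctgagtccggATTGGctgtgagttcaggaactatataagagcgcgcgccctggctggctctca
Tap1, chr17:34406280-34406529, plus strand: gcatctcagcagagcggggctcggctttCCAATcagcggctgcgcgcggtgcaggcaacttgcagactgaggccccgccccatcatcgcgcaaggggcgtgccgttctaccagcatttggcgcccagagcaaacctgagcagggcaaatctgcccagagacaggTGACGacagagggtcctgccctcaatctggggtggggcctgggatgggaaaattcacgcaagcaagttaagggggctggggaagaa
Psmb8, chr17:34416919-34417168, plus strand: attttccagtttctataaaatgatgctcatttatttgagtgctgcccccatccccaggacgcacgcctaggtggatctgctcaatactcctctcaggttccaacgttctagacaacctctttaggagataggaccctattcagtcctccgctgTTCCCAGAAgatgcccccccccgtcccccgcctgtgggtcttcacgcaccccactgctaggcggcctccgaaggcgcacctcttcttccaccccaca

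Counting 250 bases before to 50 after the start site, the windows of H2-K1, H2-D1 and B2m held the IRF, CRE-like, CCAAT and NF-kB motifs all together, which 0.107% of the 27018 promoter windows in the table did. The H2-K1 and H2-D1 windows share an identical run of 47 bases. In H2-K1 the IRF match began 90 bases before the start site and the CRE-like match 41 bases before it, and in H2-D1 these distances were 150 and 101 bases. B2m, on another chromosome, had its IRF match 137 bases and its CRE-like match 78 bases before the start. Tap1 and Psmb9, whose start sites are 226 bases apart and whose windows share 275 bases, each had the CRE-like and CCAAT motifs but not the other 3. Psmb8 was the only one of the 8 with a GAS match, 97 bases before its start, a motif that 8.47% of all windows held. Tapbp had CCAAT matches alone, and Psmb10 matched none of the 5. Over the 8 genes, 3 held the IRF motif against 24.2% of all windows, 5 the CRE-like motif against 21.0%, 6 the CCAAT box against 37.9% and 3 the NF-kB motif against 4.35%. These matches describe letters in a window and say nothing on binding in these cells.

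**Figure D1:**
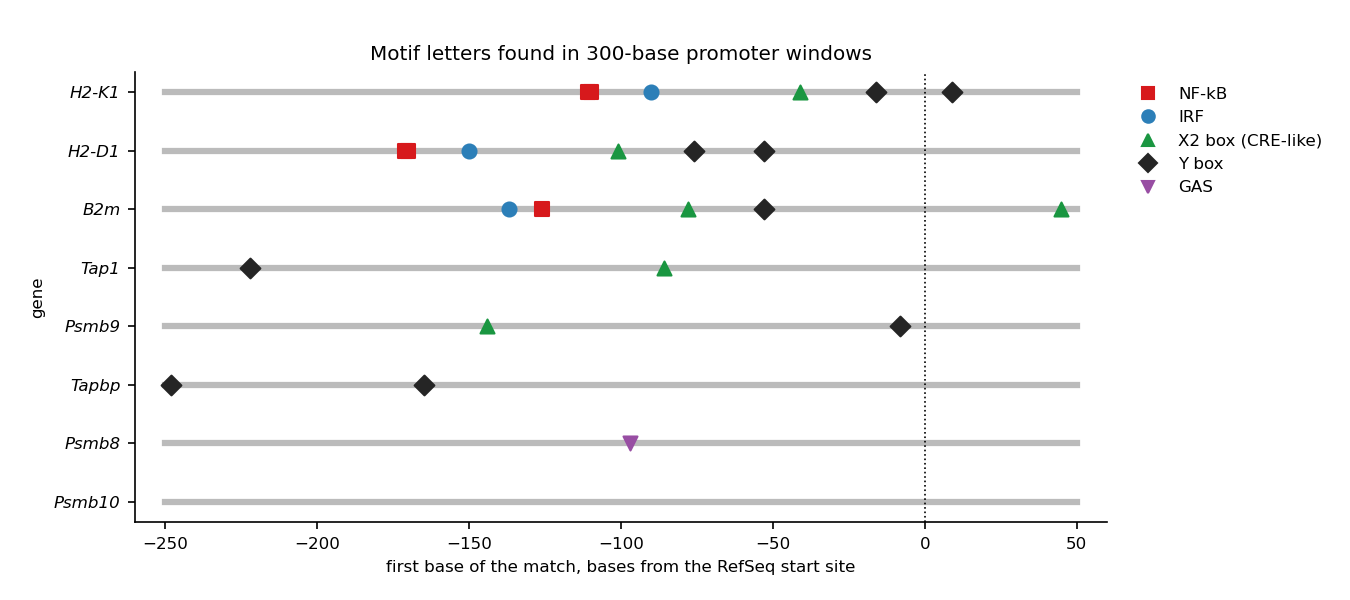
Motif matches in the promoter windows of the 8 class I genes in the RefSeq table: the x axis is the first base of a match in bases from the start site (dotted line), each grey bar is the window of a gene, and symbols mark the motifs (Y box for the CCAAT box, X2 box for the CRE-like motif). H2-K1, H2-D1 and B2m carry the IRF, CRE-like, CCAAT and NF-kB matches together, Psmb8 a single GAS match, and Psmb10 none.

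The 26 libraries held 16475735 to 36173502 counted reads, so that 3 counts, taken here as the floor of detection, amounted to 0.092 to 0.168 read counts scaled to a library total (CPM, counts per 1e6 reads) in one library. In the cultures, Tyr was at 0 in every library and the melanocyte genes together reached at most 26.9 CPM, nearly all of it Mitf, so the melanocyte markers were largely absent from a line described as amelanotic. Leukocyte markers were almost absent from the cultures: 10 leukocyte genes summed to 0.855 to 1.88 CPM, and Cd52, Tyrobp and Cd48 had no read in any culture. Cultures with the same number resembled each other across the control and edited cells. Cultures 1 and 2 were above cultures 3 and 4 in both genotypes for 6 of the 10 class I genes (H2-K1, H2-D1, B2m, Tap1, Tap2 and Nlrc5) and below them for Psmb10. The share of all genes with such a split was not counted, so it is not read as particular to the class I genes. What sets the numbers apart is not given in the sources used here.

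The low baseline of the cultured cells was uneven along the pathway. Levels between genes are compared as CPM per kilobase of the canonical transcript. By the mean over the 4 control cultures, B2m was highest at 337 ± 81.9 CPM per kilobase (SD, n = 4), followed by H2-D1 at 133 ± 53.9, and every other member was at or below 13.99. H2-K1 (13.99 ± 11.1), Psmb10 (13.7 ± 5.44), Tapbp (13.04 ± 2.29) and Tap2 (11.6 ± 4.94) did not differ beyond their spread, Tap1 followed at 3.70 ± 1.26 and Nlrc5 at 0.994 ± 0.758. Psmb9 at 0.282 ± 0.209 and Psmb8 at 0.0284 ± 0.0217 closed the order. The ranges of B2m and H2-D1 did not overlap each other, nor did those of H2-D1 and H2-K1, whereas the ranges of H2-K1, Psmb10, Tapbp and Tap2 did.

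The chains were therefore far apart in culture. H2-K1 had 39.1, 37.2, 6.03 and 8.28 CPM in control cells 1 to 4, a gap of 5.33-fold between the mean of cultures 1 and 2 and that of 3 and 4. H2-D1 had 382, 377, 164 and 203 CPM, and B2m 460, 422, 272 and 312 CPM. Per kilobase, H2-D1 was 7.48 to 20.8 times H2-K1 in the control cells and 8.01 to 18.7 times in the mt.11944 60% cells, against 1.62 to 2.11 times over the 18 tumors, a comparison chosen after its values were seen.

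**Figure D2:**
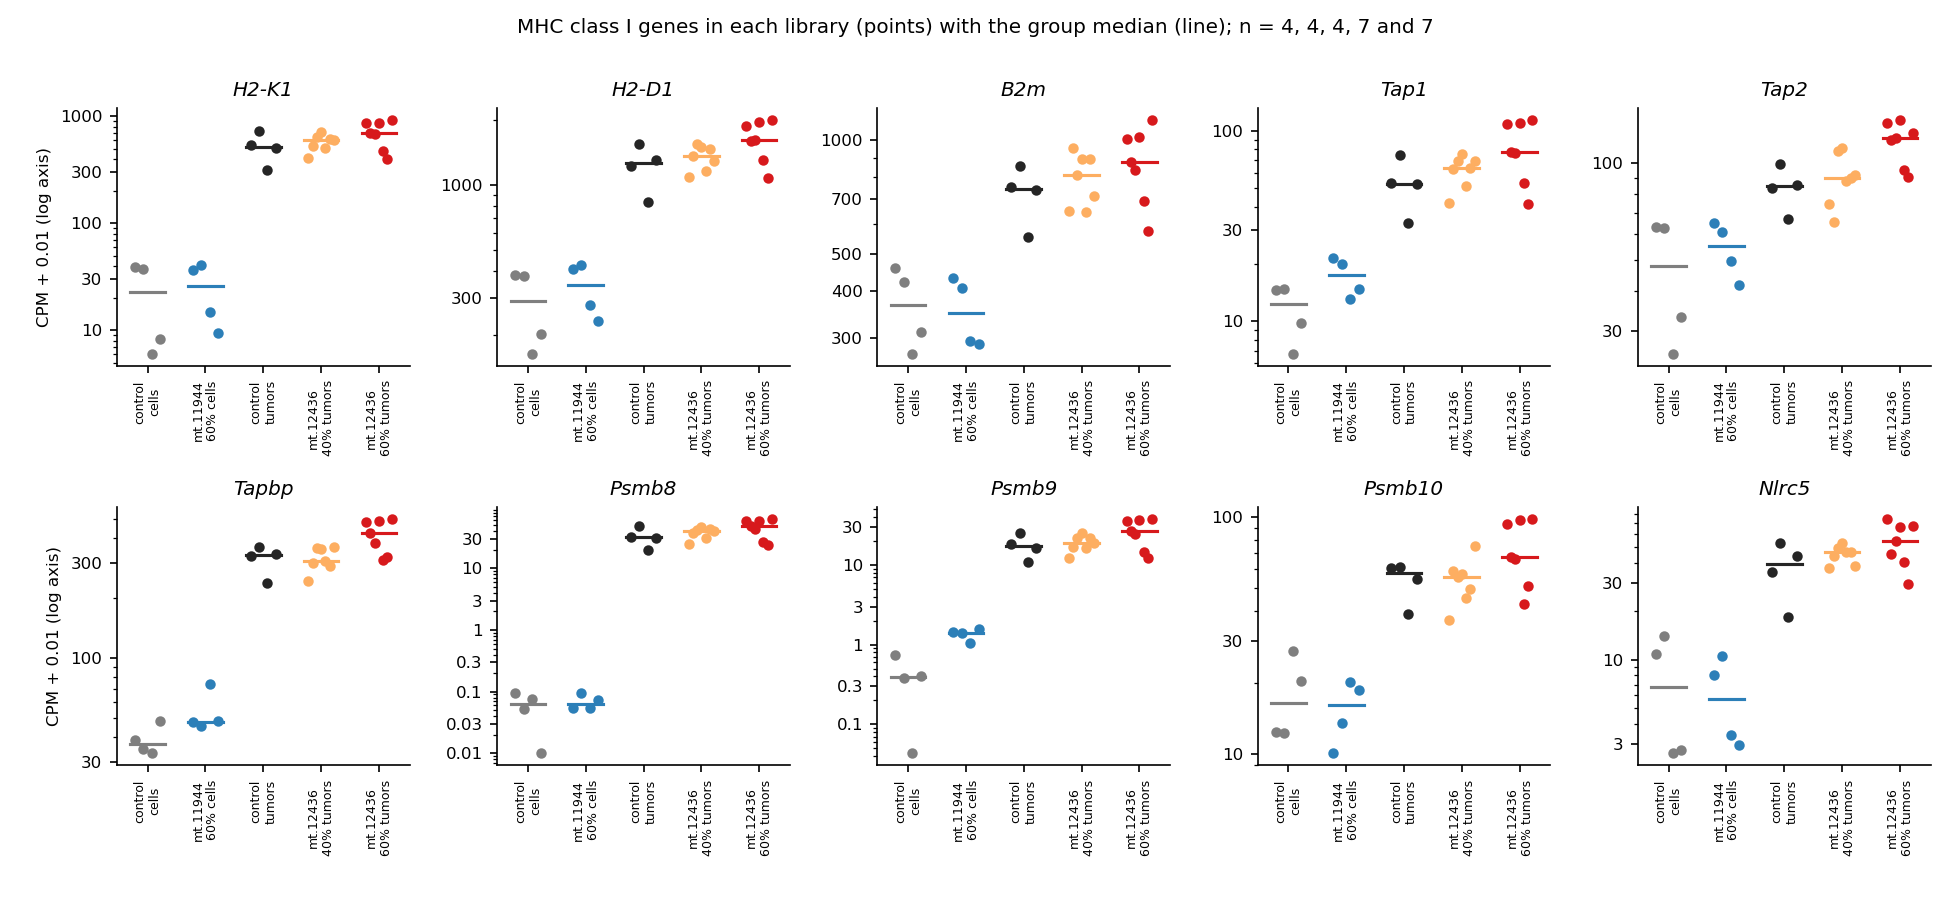
CPM plus 0.01 of each of the 10 genes (y axis, log scale that differs between panels) by group (x axis); each point is a library and the line is the group median, for 4 control cultures, 4 mt.11944 60% cultures, 4 control tumors, 7 mt.12436 40% and 7 mt.12436 60% tumors. Every tumor lies above every culture for all 10 genes, and Psmb8 in the cultures lies below the floor of 3 counts.

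Control tumors were compared with control cells to set the tumor level beside that baseline. In the edgeR quasi-likelihood test all 10 genes were higher in the control tumors (adjusted p under 0.1), and every control tumor was above every control culture for all 10. Across the genes tested, 65.2% passed this test in either direction, 35.3% as higher in tumors and 29.9% as lower, and 31.5% had every tumor above every culture, so such a call is common in this comparison. The median log2 fold change was 2.30 over the 10 genes against 0.038 over all genes tested. Culture and graft also differ in the host cells a tumor holds: the leukocyte genes summed to 767 to 1052 CPM in the control tumors, and all 10 of them passed as higher. Host cells and the grown melanoma cells cannot be told apart as the source of a read in these samples, and neither can fewer cells of a type and less RNA per cell.

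Among the chains, the largest difference was that of H2-K1, with 538, 732, 316 and 503 CPM in control tumors 1 to 4. That was 23.6-fold above the control cells (log2 fold change 4.56, SE 0.66, edgeR adjusted p = 0.000332). H2-D1, with 1224, 1551, 833 and 1305 CPM, was 4.46-fold higher (log2 2.16, SE 0.32, adjusted p = 0.000349). B2m, the light chain that class I shares with CD1d and other relatives, had 751, 854, 554 and 741 CPM and was 2.02-fold higher (log2 1.02, SE 0.20, adjusted p = 0.00201). The chain most abundant in culture thus differed least. Within each, control tumor 3 was the lowest and control tumor 2 the highest, as for all 10 genes.

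The transport and loading genes differed unequally. Tapbp had 38.9, 34.8, 33.2 and 48.4 CPM in the control cells and 324, 362, 238 and 334 in the control tumors, 8.29-fold higher with the least spread of the 10 (log2 3.05, SE 0.18, adjusted p = 1.7e-06). Tap1 went from 14.7, 14.7, 6.72 and 9.83 CPM to 52.9, 74.5, 32.8 and 52.4 CPM, 4.74-fold higher (log2 2.25, SE 0.31, adjusted p = 0.000263). Its partner Tap2, with 63.1, 62.6, 25.5 and 33.2 CPM in culture and 83.4, 99.3, 66.8 and 85.5 CPM in tumors, was 1.86-fold higher, the smallest difference of the 10 (log2 0.89, SE 0.29, adjusted p = 0.0255). Cultures 1 and 2 came close to the lowest control tumor for Tap2 without reaching it. By mean CPM per kilobase the order in the control tumors was B2m (668 ± 115, SD, n = 4), H2-D1 (580 ± 141), H2-K1 (323 ± 105), Tapbp (106 ± 17.96), Psmb10 (41.1 ± 7.99), Tap2 (21.1 ± 3.35), Psmb8 (19.5 ± 7.12), Tap1 (17.1 ± 5.48), Psmb9 (13.1 ± 4.48) and Nlrc5 (4.94 ± 1.93), the same as in the 40% and the 60% tumors. The ranges of the first 3 overlapped between neighbours, as did those of Tap2, Psmb8, Tap1 and Psmb9, while Tapbp, Psmb10 and Nlrc5 stood clear of theirs.

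The inducible proteasome subunits held both the lowest culture levels and the largest differences. Psmb8, which replaces the chymotrypsin-like subunit Psmb5, had 2, 1, 2 and 0 reads in the control cultures, all under the floor. Those 5 reads amount to 0.0484 CPM (exact Poisson 95% interval 0.0157 to 0.113, counting error only), and the control tumors had 32.6, 49.4, 20.03 and 31.0 CPM, a mean 687 times as high (294 to 2114 from the counting interval). The fitted log2 fold change of 9.32 (SE 0.49, adjusted p = 1e-06) depends on the prior count the fit adds. Psmb9, which replaces Psmb6, had 0.727, 0.376, 0.0331 and 0.389 CPM in culture (17, 9, 1 and 10 reads) and 18.3, 25.6, 10.95 and 16.2 CPM in the control tumors, 48.6-fold higher (log2 5.60, SE 0.57, adjusted p = 4.2e-05). Psmb10, which replaces Psmb7, was well expressed in culture, at 12.4, 12.2, 27.1 and 20.4 CPM, and had 61.1, 61.2, 38.9 and 54.7 CPM in tumors, 3.06-fold higher (log2 1.62, SE 0.28, adjusted p = 0.000879). The 3 subunits therefore did not share a baseline. The transactivator Nlrc5 had 10.8, 13.97, 2.62 and 2.76 CPM in the control cells and 34.9, 52.6, 18.3 and 44.0 CPM in the control tumors, 5.10-fold higher (log2 2.35, SE 0.58, adjusted p = 0.00679).

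Since the culture numbers moved H2-K1 and Nlrc5 most, the comparison was repeated with each pair of control cultures. With control cells 1 and 2 alone all 10 genes still passed, with log2 fold changes of 0.42 to 8.94 (H2-K1 3.78, Nlrc5 1.61, Tap2 0.42). With control cells 3 and 4 alone all 10 passed as well, at 1.19 to 9.70 (H2-K1 6.20, Nlrc5 3.804, Tap2 1.52). The sizes for H2-K1, Nlrc5 and Tap2 thus rest on which cultures serve as the baseline.

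The genes around the pathway did not all differ the same way between control tumors and control cells. The constitutive counterparts Psmb5 (log2 fold change -0.95), Psmb6 (-0.84) and Psmb7 (-1.15) were all lower in the tumors, and so were 11 of the 11 other core proteasome subunits tested, with a median of -0.86. Psme1 (0.94) and Psme2 (0.99), the subunits of the interferon-inducible proteasome activator, were higher, whereas Psme3, Psme4 and the assembly factor Pomp were lower. Of 15 nonclassical class I genes 10 could be tested and 8 were higher, such as H2-Q4 (6.92) and H2-T23 (3.10), which encodes Qa-1; H2-M3 was at 0.39 and did not pass. Of 8 loading and trimming genes, Tapbpl (2.64), the tapasin-related peptide editor, and the aminopeptidase Erap1 (1.60) were higher, and Bcap31, the chaperone Canx and Uggt1 lower. Irf1 (3.40) was higher, and of the 12 class I transcription factors 7 passed as higher, Irf1 among them, and 3 as lower (Nfyb, Atf1 and Creb1). Of the genes that read class I on T and natural killer cells all 6 that could be tested were higher, and most had no read in the control cells.

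In percent terms, the inducible subunit made up little of its pair in culture. Taking each inducible subunit as a percent of the sum with its counterpart in CPM per kilobase, with nothing added to the counts, Psmb8 made up at most 0.0467% in a control culture, every one of them under the floor of 3 counts, and a median of 26.6% in the control tumors (16.3 to 35.1%). Psmb9 went from a median of 0.118% (0.0102 to 0.200%, the lowest on 1 read) to 9.12% (5.10 to 12.4%), and Psmb10 from 5.49% (4.40 to 7.51%) to 31.9% (22.4 to 32.6%). On the log2 scale, with a prior count of 0.5 added to each count, the ratio of inducible to constitutive subunit was higher by 10.1 for Psmb8, 6.81 for Psmb9 and 2.82 for Psmb10 in the control tumors, each with no overlap (exact two-sided permutation test, p = 0.0286, the smallest that 4 against 4 allows, and 0.0857 after Benjamini-Hochberg adjustment over the 15 ratio tests made). The Psmb8 value rests on 5 culture reads and depends on the prior count: with a prior count of 2 it was 9.01, against 6.43 for Psmb9 and 2.81 for Psmb10, all 3 on the same side of the threshold. The Psmb5 counts are the less certain, since 27.3% of the 100-base stretches of its transcript also occur elsewhere, and Psmb7 shares 46.8% of its exon bases with Nek6 on the other strand.

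**Figure D3:**
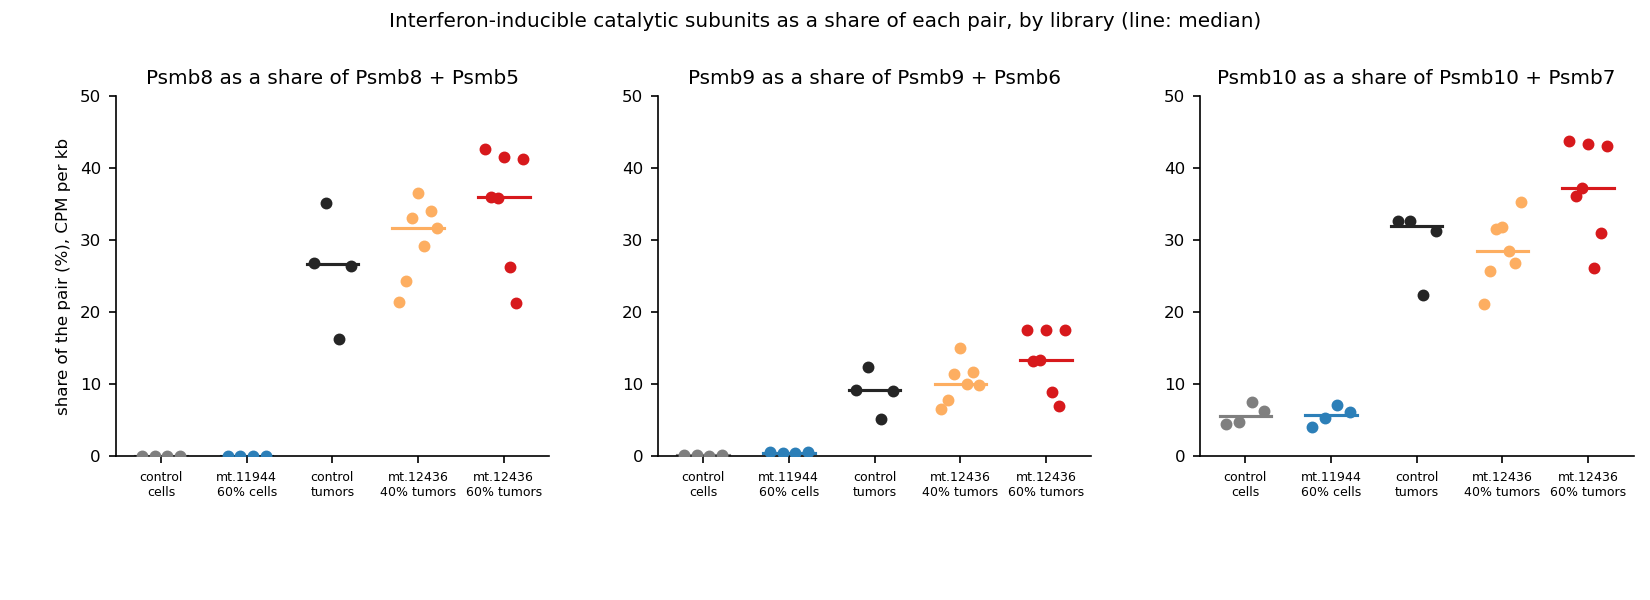
Inducible subunit as a percent of the inducible and constitutive subunit together, from CPM per kilobase (y axis), for Psmb8 with Psmb5, Psmb9 with Psmb6 and Psmb10 with Psmb7; each point is a library, the line is the group median and the groups are on the x axis. Psmb8 and Psmb9 lie near 0 in every culture, Psmb10 between 3.96 and 7.51%, and all 3 are higher in every tumor.

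The main question of the tumor arm was whether the edited tumors differ from control tumors. For the class I genes, the mt.12436 60% tumors had higher fitted levels than control tumors for all 10, by log2 0.28 to 0.65 with a median of 0.46 against -0.0025 over all genes tested, but none of the 10 passed the edgeR test. Across all genes 2.31% passed in that comparison, 0.962% as higher. At an unadjusted p under 0.05, 4 of the 10 passed against 16.3% of all genes, and by DESeq2 with adjusted p under 0.1, 2 of the 10 did, Tap2 and Tapbp, against 7.21% of the genes to which DESeq2 gave an adjusted p. No member had every 60% tumor above every control tumor, which 1.4% of genes did. The mt.12436 40% tumors differed less from the same 4 control tumors, by 0.01 to 0.27 with a median of 0.14; none of the 10 passed, nor did any other gene (0.0%), and none of the 10 was under an unadjusted p of 0.05, against 5.09% of all genes. Both comparisons share the control tumors, so their values are not independent of each other.

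For the chains, H2-K1 ranged from 403 CPM over a median of 702 to 930 CPM in the 7 mt.12436 60% tumors and from 406 over 597 to 714 CPM in the 7 mt.12436 40% tumors. All 3 groups overlapped, and the 60% tumors were at log2 0.43 against control tumors (SE 0.23, edgeR adjusted p = 0.372). H2-D1 ranged from 1079 over 1625 to 2010 CPM in the 60% tumors and from 1084 over 1360 to 1554 CPM in the 40% tumors, with log2 0.41 for the 60% tumors against controls (SE 0.17, adjusted p = 0.227). B2m ranged from 575 over 876 to 1135 CPM and from 645 over 811 to 954 CPM, with the smallest log2 difference of the 10, 0.28 (SE 0.16, adjusted p = 0.417).

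Of the 10 genes, Tap2 and Tapbp, for transport and loading, came nearest to the threshold. Tap2 ranged from 90.4 over 119 to 136 CPM in the 60% tumors, with 5 of the 7 above every control tumor, and from 65.7 over 89.996 to 111 CPM in the 40% tumors. Its log2 difference between 60% and control tumors was 0.48 (SE 0.14, edgeR adjusted p = 0.117). Tapbp ranged from 311 over 424 to 499 CPM in the 60% tumors and from 245 over 307 to 361 CPM in the 40% tumors, with log2 0.40 against controls (SE 0.14, adjusted p = 0.174). Tap1 had the largest fitted difference of the 10, 0.65 (SE 0.27, adjusted p = 0.246), over a range from 41.4 over 77.9 to 114 CPM in the 60% tumors and 41.6 over 64.1 to 75.5 CPM in the 40% tumors. Leaving out control tumor 2 brought Tap2 to an adjusted p of 0.0671 in the edgeR fit, and leaving out 60% tumor 6 to 0.0787. Over all 11 fits without 1 tumor, its edgeR adjusted p ranged from 0.0671 to 0.468.

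Among the inducible subunits, Psmb9 ranged from 12.2 over 26.8 to 37.9 CPM in the 60% tumors and from 12.3 over 19.0 to 25.2 CPM in the 40% tumors (log2 0.60 for 60% against controls, SE 0.30, edgeR adjusted p = 0.333). Psmb8 ranged from 23.7 over 48.0 to 63.2 CPM and from 24.7 over 41.1 to 46.9 CPM, with 0.48 against controls (SE 0.28, adjusted p = 0.402). Psmb10 ranged from 42.9 over 67.6 to 97.7 CPM and from 36.7 over 55.9 to 75.2 CPM, with 0.45 (SE 0.22, adjusted p = 0.334). Nlrc5 ranged from 29.6 over 54.3 to 74.5 CPM and from 36.9 over 46.3 to 53.0 CPM, with 0.53 (SE 0.25, adjusted p = 0.311). In Psmb8, Psmb9 and Nlrc5 the range of the 60% tumors enclosed that of the 40% tumors, whereas the lowest tumor for Psmb10 was a 40% tumor.

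The share of the inducible subunit in its pair was highest in the 60% tumors by its median for each of the 3 pairs. Psmb8 had a median of 36.0% in the 60% tumors, 31.7% in the 40% tumors and 26.6% in the control tumors, Psmb9 of 13.3%, 10.03% and 9.12%, and Psmb10 of 37.2%, 28.4% and 31.9%. For Psmb10 the 40% tumors were thus below the control tumors. Against the control tumors, the log2 ratio in the 60% tumors differed by 0.61 for Psmb8, 0.67 for Psmb9 and 0.49 for Psmb10, with adjusted p of 0.275, 0.234 and 0.234 (exact two-sided permutation tests, smallest p possible 0.00606). Leaving out 60% tumor 6 gave 0.84 for Psmb9 (adjusted p = 0.0952), and leaving out 60% tumor 5 gave 0.61 for Psmb10 (adjusted p = 0.0952), in the same exact tests. Over all 11 such fits the differences were 0.40 to 0.87 for Psmb9 and 0.31 to 0.61 for Psmb10.

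**Figure D4:**
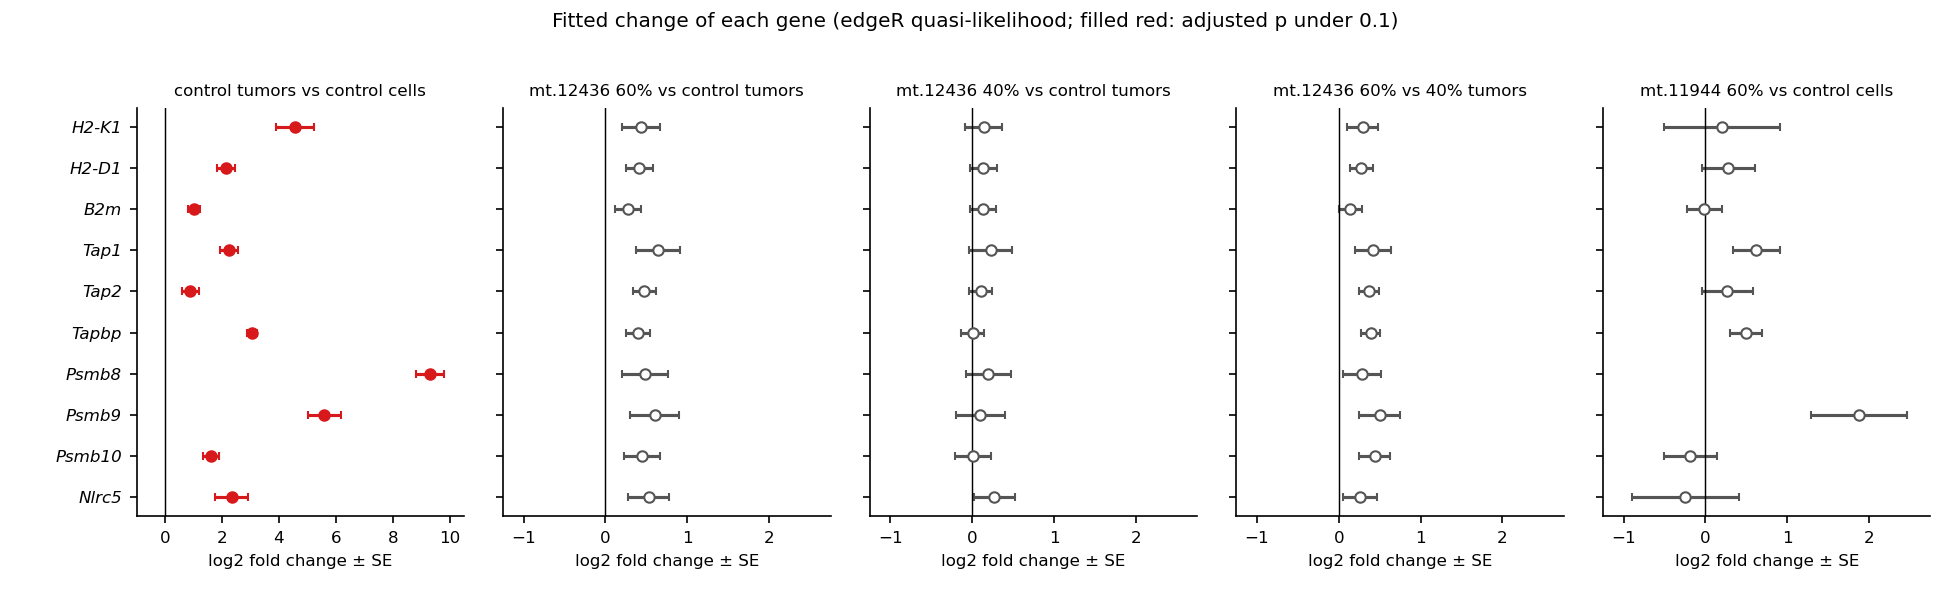
Fitted log2 fold change ± SE (x axis) of each gene (y axis), one panel per comparison; filled red points have an edgeR adjusted p under 0.1, and the first panel has a wider axis than the others. All 10 genes are filled in control tumors against control cells, none in the other panels, all tumor values are above 0, and Psmb8 has no value in the cultures.

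The mt.12436 60% and 40% tumors were also compared with each other. All 10 fitted differences were positive, from log2 0.14 to 0.50 with a median of 0.33, and none of the 10 passed, against 1.81% of all genes and 0.814% as higher. An unadjusted p under 0.05 was reached by 3 of them against 14.1% of all genes: Tapbp (0.39, SE 0.12, edgeR adjusted p = 0.135), Tap2 (0.37, SE 0.12, adjusted p = 0.149) and Psmb10 (0.44, SE 0.19, adjusted p = 0.304). DESeq2 passed 2, Tapbp and Tap2, against 4.59% of all genes. Without 60% tumor 5 or 60% tumor 6, Tapbp reached an adjusted p of 0.0917 and 0.0951, and without 40% tumor 4, Tap2 reached 0.0934, in the edgeR fit. Over all 14 such fits the edgeR adjusted p ranged from 0.0917 to 0.256 for Tapbp and from 0.0934 to 0.275 for Tap2. The log2 ratio of Psmb10 to Psmb7 was -0.77 ± 0.44 (SD, n = 7) in the 60% tumors and -1.33 ± 0.34 in the 40% tumors, a difference of 0.56 (exact two-sided permutation test, p = 0.0227, adjusted over the 15 ratio tests p = 0.0857). That call was lost on leaving out any of 8 of the 14 tumors (60% tumors 1, 3, 4 and 7 and 40% tumors 1, 2, 5 and 6), with differences of 0.46 to 0.68 over all such fits. For Psmb9 to Psmb6 the difference was 0.42 (exact permutation test, adjusted p = 0.275), or 0.58 with an adjusted p of 0.0874 without 60% tumor 6. It was 0.31 to 0.58 over all 14 such fits. For Psmb8 to Psmb5 the difference was 0.31 (exact permutation test, adjusted p = 0.364).

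The spread among tumors of a group was shared by the whole set. Within the 60% tumors, tumors 5 and 6 were the lowest for 10 of the 10 genes, and tumor 7 was the highest for 8. Tumor 5 was below the control-tumor median for 6 genes and tumor 6 for 9, whereas the other 5 tumors were above it for all 10. Control tumor 3 was the lowest and control tumor 2 the highest control tumor for all 10, and 40% tumor 1 was the lowest 40% tumor for 8. After subtracting group means, the 45 pairs of members correlated over the 18 tumors with Pearson r from 0.598 to 0.990 (median 0.897) and Spearman rho from 0.523 to 0.994, all with adjusted permutation p at or under 0.0127 (Pearson). Without the 2 tumors farthest from the median the lowest r was 0.407.

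Leukocyte genes moved with that spread. The leukocyte score, the mean log2 CPM of Ptprc, Cd52, Cd48, Cd53, Lcp1, Laptm5, Tyrobp, Coro1a, Fcer1g and Itgb2, was 5.91 ± 0.18 (SD, n = 4) in control tumors, 5.94 ± 0.16 (n = 7) in 40% tumors and 6.30 ± 0.28 (n = 7) in 60% tumors. The 60% tumors low in class I genes, tumors 5 and 6, were at 5.92 and 6.02, and tumor 7 was at 6.71. With group means subtracted, each of the 10 genes correlated with the score over the 18 tumors, from r = 0.74 (rho = 0.78) for Nlrc5 to r = 0.93 (rho = 0.93) for Tapbp, with adjusted permutation p at or under 0.00138 for r and 0.00393 for rho over the 10 relations. Without the 2 tumors farthest from the median, r was 0.72 to 0.93. With the score as a covariate in the edgeR fit, the 60% against control differences of the 10 genes lay between log2 -0.27 and 0.16 with 8 of 10 below 0, and the smallest adjusted p was 0.565. Between 60% and 40% tumors they lay between -0.44 and 0.08, again with 8 of 10 below 0 and a smallest adjusted p of 0.251. In both of these comparisons most fitted values thus changed sign with the score in the fit, but none passed with or without it. Between 40% and control tumors 8 of the 10 stayed positive with the score, at log2 -0.06 to 0.27 over the 10 genes. The score was itself higher in the 60% tumors, so the covariate also takes up part of the difference between groups. Whether leukocytes or melanoma cells carried the class I reads was not tested, since the tumors were sequenced whole.

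**Figure D5:**
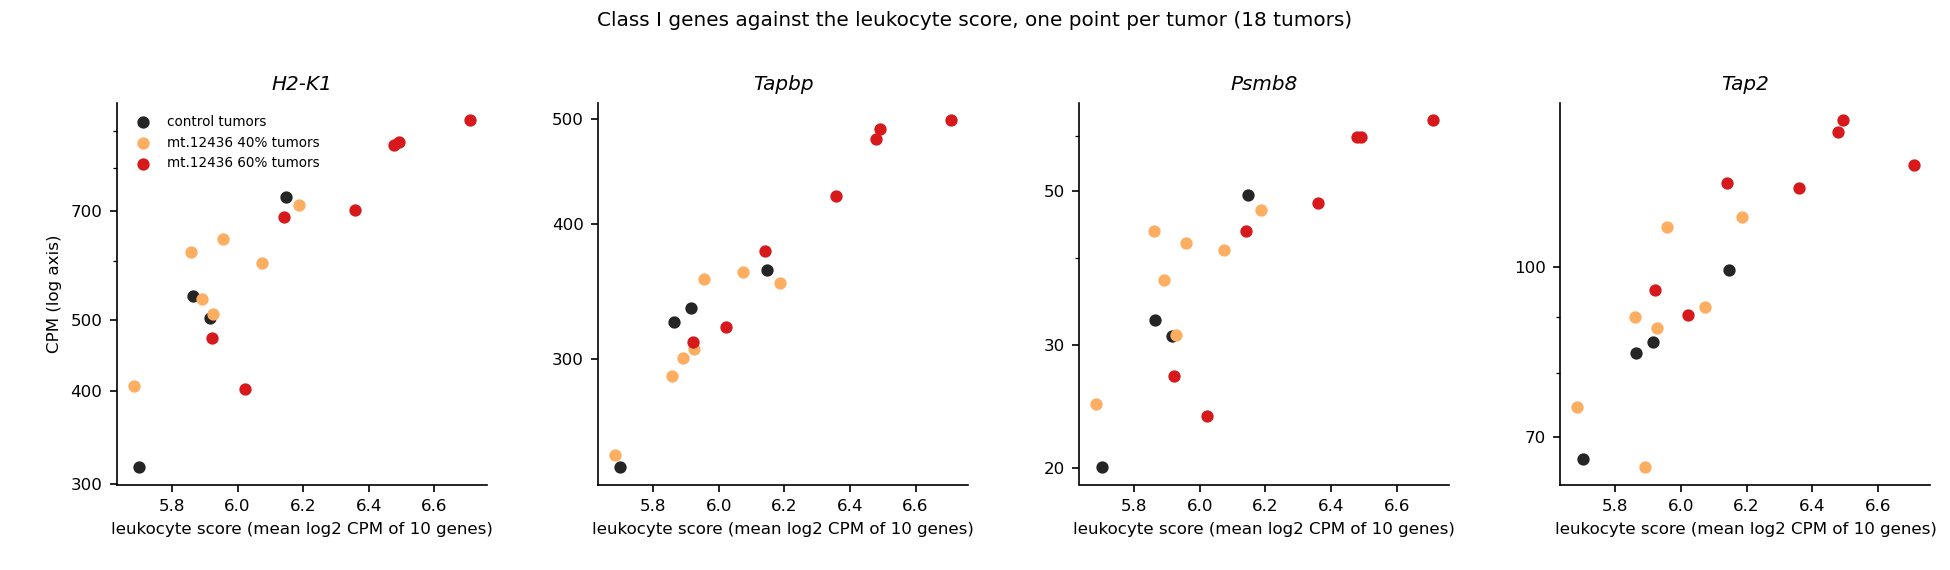
CPM of H2-K1, Tapbp, Psmb8 and Tap2 (y axes, log scale) against the leukocyte score, the mean log2 CPM of 10 leukocyte genes (x axis), for 4 control, 7 mt.12436 40% and 7 mt.12436 60% tumors; each point is a tumor. The 60% tumors with the lowest scores, at 5.92 and 6.02, lie lowest of the 60% tumors in all 4 panels, and the one at 6.71 is highest for H2-K1, Tapbp and Psmb8 but not for Tap2.

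Other marker lists gave these values in the tumors. Of the 10 leukocyte genes, all 10 were positive for 60% against control tumors and Itgb2, a leukocyte integrin chain, passed (log2 0.61, SE 0.16, edgeR adjusted p = 0.0726). Ptprc was at 0.61 and did not pass (adjusted p = 0.135). All 10 T-cell genes were positive with a median of 0.78 and none passed, 7 of 10 macrophage genes were positive and none passed, and 4 of the 4 neutrophil genes tested were negative and none passed. Between 60% and 40% tumors, Cd8a was at 1.37 (adjusted p = 0.164), Itgb2 (0.77, adjusted p = 0.0110) and the myeloid lysozyme Lyz2 (0.52, adjusted p = 0.0744) passed, and the summed skeletal muscle genes ranged from 1.012 to 195 CPM over the tumors. Their part in the class I values was not tested. Pmel, a melanosome gene, passed as lower in the 60% than in control tumors (log2 fold change -2.21, adjusted p = 0.0456), and 1 control tumor held 8.19 CPM of it, its highest level.

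In the wider pathway the tumor comparisons passed only Irf1, an interferon-induced activator of class I and immunoproteasome genes, which was higher in 60% than in 40% tumors (log2 0.47, SE 0.12, edgeR adjusted p = 0.0888). Against control tumors Irf1 was at 0.47 (SE 0.15, adjusted p = 0.134). All 7 interferon-gamma signalling genes had positive values in 60% against control tumors, with a median of 0.20, and 9 of 11 nonclassical class I genes tested did, with a median of 0.50; H2-M3 (0.45, adjusted p = 0.118) had the smallest p of these. Psme1 was at 0.30 (adjusted p = 0.144) and Psme2 at 0.29 (adjusted p = 0.212), and Erap1 at 0.34 (adjusted p = 0.149). The constitutive counterparts were at -0.15 for Psmb5, -0.12 for Psmb6 and -0.08 for Psmb7 and did not pass. Ifng itself, at 0 in every culture, ranged from 0.0307 to 0.472 CPM in control tumors and from 0.0979 to 1.06 CPM in 60% tumors (log2 1.011, adjusted p = 0.430).

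The genes most like the class I set over the 18 tumors, with group means subtracted, were ranked by Pearson r with the mean log2 CPM of the 10 among 12205 genes. Outside the lists they were Gm12250 (0.972), Igtp (0.972), Gbp5 (0.967), Tgtp1 (0.966), Ifi47 (0.965), Gbp3 (0.962), Tgtp2 (0.959), Gbp7 (0.959), Irgm2 (0.955) and Trafd1 (0.954). Most of these are interferon-inducible GTPases of the immunity-related and guanylate-binding families. The members themselves took ranks 1 to 5 (H2-K1, Tap1, Psmb8, Psmb9 and H2-D1), which they enter into by construction, while Tapbp ranked 27, B2m 58, Nlrc5 59, Psmb10 100 and Tap2 210 (r = 0.839). Tap2, the gene nearest to a call between 60% and control tumors, was thus the one least like the rest of the set.

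The cultures show the genes without host cells. Between mt.11944 60% and control cells, 9 of the 10 genes had enough reads to be tested (Psmb8 did not) and none passed the edgeR test, against 0.0387% of all genes; 2 had an unadjusted p under 0.05, Psmb9 and Tapbp, against 4.11% of all genes. By DESeq2 none of the 9 passed either, against 0.65% of all genes. Because cultures with the same number deviated together, a fit with the culture number as a block is given beside it, and in that fit 7.11% of all genes passed, 3.02% as higher, and 2 of the 9 members, Psmb9 and Tap1, both as higher.

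Psmb9 had 1.42, 1.41, 1.05 and 1.56 CPM in mt.11944 60% cells 1 to 4 (32, 33, 24 and 50 reads), above each of the 4 control cultures, which 1.27% of genes were. It was higher in 4 of 4 same-numbered pairs, by 1.95 to 31.7 times, where the highest fold rests on a single read in control cells 3. The log2 difference was 1.88 (SE 0.59, edgeR adjusted p = 1.0), and 1.95 (SE 0.39, adjusted p = 0.0386) with the block. Leaving out each culture in turn moved the first value between 1.48 and 2.39. The log2 ratio of Psmb9 to Psmb6 was higher by 2.46 (exact two-sided permutation test, p = 0.0286, adjusted p = 0.0857), and Psmb9 was a median 0.479% of the pair against 0.118% in control cells. Without control cells 3 that ratio difference was 1.65. On leaving out any 1 of the 8 cultures the adjusted p of the exact test was 0.171. That is the lowest it could reach with 1 culture fewer, so these fits cannot decide on the call. Both Psmb9 medians, 0.479% and 0.118%, are far under the 9.12% of the control tumors.

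Tap1, whose start site and some exon bases lie within those of Psmb9 as described above, had 21.4, 19.97, 13.04 and 14.8 CPM in the edited cultures and was higher in 4 of 4 pairs, by 1.36 to 1.94 times. Its log2 difference was 0.62 (SE 0.29, edgeR adjusted p = 1.0) without the block and 0.65 (SE 0.11, adjusted p = 0.0184) with it. H2-D1 had 407, 424, 277 and 232 CPM and was higher in 4 of 4 pairs, at 0.33 with the block (SE 0.10, adjusted p = 0.115). Tapbp had 47.4, 45.4, 73.6 and 48.4 CPM, also higher in 4 of 4 pairs though equal to 3 digits in the last, at 0.48 (SE 0.17, adjusted p = 0.151). The groups of H2-D1 and Tapbp overlapped.

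H2-K1, Tap2, B2m, Psmb10 and Nlrc5 did not pass with the block either. H2-K1 had 37.0, 40.5, 14.9 and 9.51 CPM, at 0.37 with the block (SE 0.20, adjusted p = 0.316), and Tap2 had 65.0, 60.9, 49.5 and 41.7 CPM, at 0.34 (SE 0.15, adjusted p = 0.224). B2m had 433, 405, 294 and 289 CPM and was higher in 1 of 4 pairs. Psmb10, with 10.1, 13.5, 20.1 and 18.6 CPM, was also higher in 1 of 4, and Nlrc5, with 8.02, 10.52, 3.41 and 2.93 CPM, in 2 of 4; their blocked edgeR adjusted p were 0.961, 0.431 and 0.696. Psmb8 had 1, 2, 1 and 2 reads, together 0.0594 CPM (exact Poisson 95% interval 0.0218 to 0.129), which overlaps the interval of the control cells, so a difference was not detectable at this depth. Outside the set, the tapasin relative Tapbpl passed with the block (0.59, SE 0.14, adjusted p = 0.0597), while Irf1 (0.63, adjusted p = 0.156) did not. Of the marker genes, Lyz2, a myeloid gene (1.16, adjusted p = 0.0447), and the fibroblast gene Col3a1 (0.48, adjusted p = 0.0790) also passed as higher with the block. The dendritic-cell gene Clec9a passed as lower (-0.48, adjusted p = 0.0914). Cd68, a macrophage gene, was at 0.009 (adjusted p = 0.984). Cd52, Tyrobp and Cd48 stayed at 0 in all 8 cultures.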

How the data were processed

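Bulk RNA-seq libraries of cultured cells and of tumor fragments were analysed. The authors deposited raw counts of reads per gene, made with STAR two-pass alignment to GRCm39 and featureCounts with an Ensembl annotation; the strand setting and the handling of multiply mapped reads are not given in the sources used here. The column names are not the sample titles: 26 of the 47 columns were matched to samples by number and by the words the study's source data use (54 for mt.11944 60% cells, high for 60%, low for 40%), with control-1 to control-4 read as control cells and control-001 to control-004 as the control tumors whose titles write the number that way (a second control tumor set is numbered otherwise), so every group rests on that match, and 21 columns were not used. The other groups are not analysed here. The study gives biological replicates with technical repeats as its general practice, but the sources used here do not say which of these samples are which, so p-values measure the spread between these samples, which may be in part technical.

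Counts were scaled by TMM and tested with edgeR 4.0.16 (R 4.3.3; quasi-likelihood test, robust, genes kept by filterByExpr, Benjamini-Hochberg over all genes tested, threshold 0.1). Cultures, the 18 tumors together, and control cultures with control tumors were fitted separately; SE is the log2 fold change over the root of F. Levels are CPM with TMM scaling over the 26 libraries. Ratios of subunits (prior count 0.5) were compared by exact permutation tests (scipy 1.17.1, Python 3.11.15), and relations over tumors by 100000 permutations. Intervals and floors cover counting error only. Alternatives were DESeq2 1.42.0 and its size factors, limma 3.58.1, other filters and thresholds, the replicate block, a leukocyte covariate, subsets of groups and leaving out each library.

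The block in the cultures used the numbers in the titles. Deviations from group means correlated at 0.819, 0.817, 0.832 and 0.718 between control and edited cultures of the same number, 1 to 4. Between different numbers the mean was -0.264, a value that subtracting group means itself pushes below 0. Of the 4 edited cultures, 3 correlated best with their own number. Whether each number marks a true pair is not given in the sources used here. The members and gene lists were chosen with earlier results of these data known. All members are named, with the genes of the other lists that passed a comparison between tumor groups or between culture groups, otherwise the smallest p values of a list, a few genes always named (Psmb5, Psmb6, Psmb7, Irf1, Psme1, Psme2, Ifng, Cd8a, Ptprc), and the 10 genes most like the members with a mean log2 CPM of at least 1. On simulated counts with 200 genes changed by log2 1, the test found 41.5% of them between the cultures (5.68% of its calls false; 12724 genes), 69.5% between 60% and control tumors (13.7% false; 16056 genes) and 49% between control tumors and control cells (12.5% false; 14570 genes). A further gene covered by the naming rule is not reported here.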

Additional observations from a re-analysis of the deposited data

Results flagged for a closer look

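Of 65 groups of values examined, 2 held a sample far from the others, where chance alone gives about 1 in 20. Tapbp in mt.11944 60% cells 3 was at 73.6 CPM, above the 45.4 to 48.4 CPM of the other 3 edited cultures. The log2 ratio of Psmb10 to Psmb7 in control tumor 3 was -1.79, below the -1.14 to -1.05 of the other control tumors; that tumor was also the lowest control tumor for all 10 class I genes.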

How the results depend on the processing

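The direction of no called difference reversed. Control tumors against control cells passed all 10 genes under every alternative except a filter of at least 10 counts in every sample, which left 8 genes to test, all 8 of them passed. Members passing moved from 0 to 2 in the cultures with the replicate block, to 2 with DESeq2 in 60% against control tumors (Tap2 adjusted p = 0.0314, Tapbp 0.0889) and in 60% against 40% tumors (Tap2 0.0727, Tapbp 0.0561), and to 1 with only the 2 groups compared (Tap2, edgeR adjusted p = 0.0722, 60% against control tumors). Leaving out 1 library gave 0 to 1 members in either of these tumor comparisons. Tumor numbers did not pair the tumors (mean correlation of same numbers -0.164, -0.0027 and -0.0159 in the 3 tumor comparisons and -0.00781 for control tumors with control cells); the block changed no other call of a member, and passed 178 genes in all for 60% against control tumors. Leaving out 1 library, the log2 ratio differences for control tumors against control cells were 9.58 to 10.4 (Psmb8), 5.99 to 7.24 (Psmb9) and 2.696 to 3.00 (Psmb10), and 1.65 to 2.90 (Psmb9) and -0.16 to 0.13 (Psmb10) in the cultures. Leaving out any 1 library of 4 against 4 brought the adjusted p of the exact test to 0.171 for each ratio called in these comparisons. That is the lowest value these tests could reach with 1 library fewer. No call could be kept, so the loss says nothing on these ratios. The log2 ratio differences without 1 library were 0.46 to 0.68 (Psmb10) and 0.31 to 0.58 (Psmb9) for 60% against 40% tumors. They were 0.40 to 0.87 and 0.31 to 0.61 (Psmb9, Psmb10) for 60% against control, and -0.014 to 0.45 and -0.25 to 0.021 for 40% against control tumors. Of all genes, 60% against control tumors passed 374, or 1056 with DESeq2, 943 with only the 2 groups, 150 at a threshold of 0.05, 31 with the leukocyte covariate and 66 to 724 without 1 library (66 without control tumor 3). 60% against 40% tumors passed 293, or 744 with DESeq2, 113 at 0.05, 178 with no filter, 37 with the covariate and 108 to 452 without 1 library. 40% against control tumors passed 0, or 5 with DESeq2 and 0 to 4 without 1 library. The cultures passed 5, or 84 with DESeq2, 919 with the block and 0 with the filter of 10 counts or without any 1 culture. The causes were not tested. Depth limits Psmb8 and Psmb9 in culture.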
